A study of Mus musculus with 8 samples.

Results

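The genes described here build the elastic fibres of the skin: *Eln*, *Fbn1*, *Fbn2*, *Fbln1*, *Fbln5*, *Efemp2*, *Mfap2*, *Mfap4*, *Mfap5* and *Emilin1*. They were listed by name, as elastin and the microfibril and linker proteins around it, and each was read from the probe set with its highest mean over all arrays. Of the 10 genes, 8 had a probe set that names them alone, and *Fbn1* and *Efemp2* were not analysed here. All 8 lay above a filter that left out the lowest 30% of genes by mean level, so they are 8 of 12735 genes tested. Expression was measured on 8 arrays of dorsal skin, 4 from mice on the collagen diet and 4 from mice on the control diet. The mice were female Hos:HR-1, a hairless laboratory strain. The collagen diet was AIN-93G, a purified rodent diet, with 2 g of fish-scale collagen hydrolysate added to every 100 g, and the control diet was AIN-93G alone. All mice ate their diet for 12 weeks from the age of 9 weeks and were 21 weeks old at sampling. There were 16 mice in all, 8 for each diet, kept 4 to a cage. The labels call the 4 arrays of a diet biological replicates and do not say which cage each came from. The comparison asks whether a diet with collagen peptides goes with other levels of these transcripts in the skin.

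An elastic fibre has a core of crosslinked elastin inside a sheath of microfibrils. Fibrillins form the microfibrils, small microfibril-associated proteins bind to them, and fibulins and emilins link the sheath, the elastin core and the cells. Elastin is laid down mainly in development and early life by fibroblasts in the dermis and by smooth muscle cells in vessel walls. Lysyl oxidases then crosslink it, and it turns over very slowly. Whole skin was measured, so fewer cells of a type and less RNA per cell cannot be told apart.

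The deposited values were on a log2 scale from 5.34 to 14.27 and differed very little between arrays. The median SD of a tested gene over the 8 arrays was 1.99e-05 on that scale, and the sources used here do not say how probe signals were summarized. A difference on this scale is therefore not a fold change of RNA. Values per array are given below as deviations from the gene's mean over the 8 arrays, in units of its SD within a diet, called SD units. Differences are collagen minus control diet, tested by limma over all 12735 genes with Benjamini-Hochberg adjustment. The 8 arrays limit the precision of every value. Markers of both main skin layers were measured: 13 of 14 keratinocyte markers and 12 of 12 fibroblast markers lay above the filter. All 18 skeletal muscle markers did too, and 2 arrays, collagen replicate 1 and control replicate 4, were low in them, with mean scores of -1.37 in both against 0.16 to 0.91 in the other 6.

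No difference between the diets was larger than the spread between arrays in the 8 elastic fibre genes. The number called at an adjusted p below 0.05 was 0 of 8, against 0% of all genes tested, and the adjusted p of each gene was 0.999 in limma. At an unadjusted p below 0.05 stood 0 of 8 genes, against 5.36% of all genes tested (1.21% higher and 4.15% lower on the collagen diet). The 4 arrays of the collagen diet overlapped the 4 of the control diet in all 8 genes, whereas the groups did not overlap in 3.31% of all genes tested. The mean was higher on the collagen diet in 3 genes (*Eln*, *Fbn2* and *Mfap5*) and lower in 5, against 45.5% higher and 54.5% lower over all genes. That split depended on the scaling: 30.7% of all genes were higher after quantile normalization and 13.5% after median centring, with 3 and 2 of the 8 genes higher. The array medians differed by up to 0.000369, more than the median SD of a tested gene. The centred split therefore largely follows the offsets between arrays. The median difference was -0.19 SD over the 8 genes and -0.08 SD over all genes.

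*Eln* (probe set 1420855_at) encodes tropoelastin, the soluble precursor of the elastin core. Its deposited log2 values were 8.3456, 8.3463, 8.3485 and 8.3457 in collagen replicates 1 to 4, against 8.3459, 8.3455, 8.3476 and 8.3461 in control replicates 1 to 4. One array of each diet, replicate 3, stood above the other 6, and the groups overlapped. In SD units the 2 high arrays were at 1.80 on the collagen diet and 1.06 on the control diet, and the other 6 lay between -0.77 and -0.10. The difference was 0.20 SD, with a 95% interval from -1.42 to 1.81, or 0.000226 ± 0.000779 on the log2 scale (SE, n = 4 per diet). Its sign turned without collagen replicate 3, to -0.57 in units of the SD refitted without that array. A second probe set of *Eln* (1420854_at) followed the first only loosely, with r = 0.34 over the 8 arrays, and differed by -0.82 SD with overlapping groups. It hardly varied, with an SD over the arrays of 9.89e-06 against 0.00108 for the first. Its difference was only -7.91e-06 on the log2 scale, so its SD units are not on a par with those of the first.

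**Figure D1:**
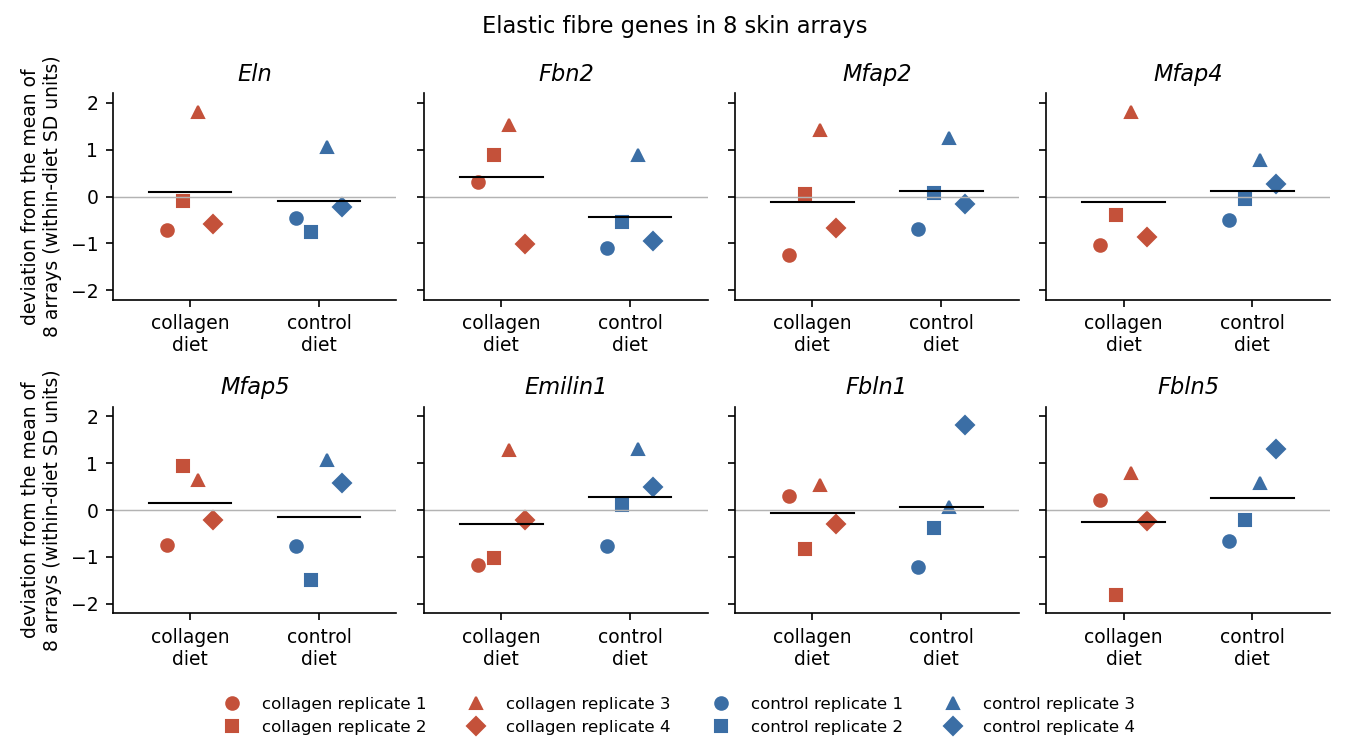
Deviation of each gene from its mean over 8 arrays (y axis, within-diet SD units) on the collagen and the control diet (x axis), with 1 marker per array, the marker shape giving the replicate number, and a black line for the mean of each diet. The diets overlap in every panel, and collagen replicate 3 and control replicate 3 (triangles) lie above the mean of the 8 arrays in all 8 genes.

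Fibrillins are the long, calcium-binding proteins that polymerize into the microfibril. *Fbn2* (1454830_at), the fibrillin used mostly in development, was at 0.30, 0.88, 1.53 and -1.02 SD in collagen replicates 1 to 4, against -1.09, -0.55, 0.89 and -0.95 SD in control replicates 1 to 4. Collagen replicates 1 to 3 lay above 3 of the control arrays, and collagen replicate 4 lay among the lowest values. The difference of 0.85 SD was the largest in size among the 8 genes, with an interval from -0.88 to 2.58, and it did not pass (unadjusted p = 0.280 in limma). On the log2 scale it was 3.08e-06 ± 2.62e-06 (SE, n = 4 per diet). This probe set had a mean of 6.88, near the filter threshold of 6.68. It varied less than most: 11.1% of genes tested had a smaller SD over the arrays. A further *Fbn2* probe set, 1422831_at, had r = 0.57 with it and differed by 0.12 SD. With the mean of all *Fbn2* probe sets the difference was 0.14 SD. The further probe set varied more, with an SD over the arrays of 9.23e-05 against 3.74e-06. It therefore dominates that mean, which is no separate check.

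The microfibril-associated proteins sit on the fibrillin scaffold. *Mfap2* (1417359_at), which encodes MAGP-1, was at -1.25, 0.04, 1.42 and -0.67 SD in collagen replicates 1 to 4, against -0.69, 0.07, 1.25 and -0.17 SD in control replicates 1 to 4. Collagen replicate 3 and control replicate 3 were again the 2 highest arrays, and collagen replicate 1 was the lowest. Its difference was -0.23 SD (interval -1.84 to 1.38). *Mfap4* (1424010_at) encodes a fibrinogen-domain glycoprotein that binds elastin and microfibrils. Its deposited log2 values were 9.6574, 9.6587, 9.6630 and 9.6578 in collagen replicates 1 to 4, against 9.6585, 9.6593, 9.6610 and 9.6600 in control replicates 1 to 4. The 2 arrays numbered 3 stood highest, and the other 3 collagen arrays included both lowest values. The collagen arrays therefore spread wider, with an SD of 0.00260 against 0.00106 on the control diet (n = 4 each). The difference in means was -0.25 SD (interval -1.86 to 1.37). Without collagen replicate 3 it was -1.91 SD, with an unadjusted p of 0.0405 and an adjusted p of 0.961 in limma. That value is in units of the SD refitted without the array, so the 2 sizes do not share a unit.

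*Mfap5* (1418454_at), which encodes MAGP-2, did not have collagen replicate 3 at the top. Its values were -0.74, 0.94, 0.63 and -0.21 SD in collagen replicates 1 to 4, against -0.77, -1.50, 1.06 and 0.58 SD in control replicates 1 to 4. The lowest and the highest array were both on the control diet, and the difference was 0.31 SD (interval -1.30 to 1.92). The second probe set of *Mfap5* (1449082_at) had r = 0.72 with the first, and there collagen replicate 3 at 1.47 SD and control replicate 3 at 1.14 SD were the highest arrays. It differed by -0.02 SD between the diets.

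The linker proteins join microfibrils, elastin and cells. *Emilin1* (1416414_at), which lies at the border of elastin and microfibrils, was at -1.17, -1.03, 1.27 and -0.22 SD in collagen replicates 1 to 4, against -0.76, 0.12, 1.31 and 0.49 SD in control replicates 1 to 4. The arrays numbered 3 were nearly level, and 2 collagen arrays lay below all of the control arrays. The difference of -0.58 SD (interval -2.19 to 1.04) did not pass. *Fbln1* (1451119_a_at), fibulin-1, was at 0.29, -0.82, 0.54 and -0.30 SD in collagen replicates 1 to 4, against -1.21, -0.38, 0.06 and 1.81 SD in control replicates 1 to 4. Both its lowest and its highest array were on the control diet, and the difference was -0.14 SD (interval -1.75 to 1.47). *Fbln5* (1416164_at), fibulin-5, which mice need to assemble elastic fibres and which binds integrins on cells, was at 0.21, -1.80, 0.80 and -0.22 SD in collagen replicates 1 to 4. On the control diet it was at -0.66, -0.21, 0.59 and 1.31 SD. Control replicate 4 was the highest array for both fibulins, and the difference of *Fbln5* was -0.51 SD (interval -2.12 to 1.10).

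**Figure D2:**
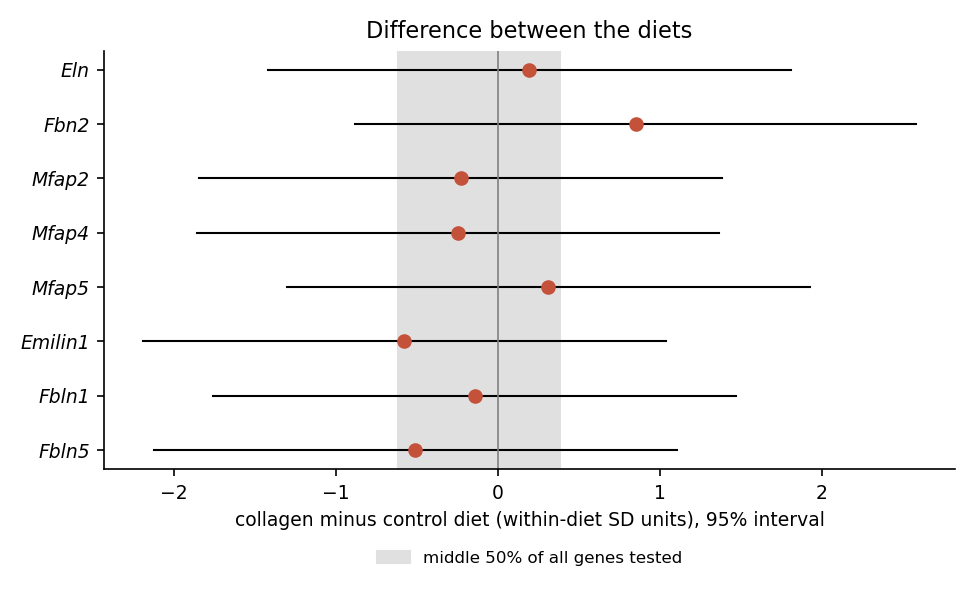
Difference between the diets in each gene (points, collagen minus control, within-diet SD units on the x axis) with its 95% interval from limma (lines), 4 arrays per diet. Every interval spans 0, and the grey band marks the middle 50% of the 12735 genes tested, from -0.62 to 0.38 SD.

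The lower ends of the 8 intervals lay between -2.19 and -0.88 SD and their upper ends between 1.04 and 2.58 SD. The other probe sets gave the same picture. Of 16 probe sets that name 1 of the 8 genes, 0 had an adjusted p below 0.05 and 0 an unadjusted p below 0.05, against 0% and 5.58% of 31526 probe sets tested, and the groups overlapped in all 16, where they did not in 3.38% of probe sets. Of the 16, 1422831_at of *Fbn2* and 1446377_at of *Fbln5* lay below the level filter. They were read from a fit without the filter and are not among the 31526. Among the 8 probe sets beyond those chosen, 2 went the same way as the chosen one, and 3 had r above 0.7 with it. Several of them hardly varied. The SD over the arrays was 4.12e-06 for 1439688_at of *Fbln1*, 1.82e-06 for 1446377_at of *Fbln5* and 1.71e-05 for 1447833_x_at of *Mfap2*. For the chosen probe sets of these genes it was 0.000436, 6.72e-05 and 0.000541.

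The genes varied together from array to array over both diets, also after each diet's mean was taken off. All 28 pairs had a positive Pearson r over the 8 arrays, with a median of 0.54, and all 28 stayed positive when each diet's own mean was taken off first. Without the 2 arrays farthest from the median of one gene of the pair, 22 stayed positive and 6 turned negative. Among those 6, *Eln* with *Emilin1* was at r = -0.0076 without the 2 arrays and 0.77 with all 8, and *Fbn2* with *Mfap4* at -0.26 and 0.59. Inside the collagen diet alone, r was -0.38 for *Fbln1* with *Mfap5* and -0.44 for *Fbln5* with *Mfap5*. Inside the control diet alone, *Fbn2* with *Fbln1* had r = -0.0039. In an exact permutation test over all 40320 orders of the arrays, 6 pairs had an adjusted p below 0.05 for r, adjusted over the 28 pairs, and 8 had an unadjusted p below 0.05. For Spearman's rho the counts were 0 and 5. The calls also depended on the scaling: after quantile normalization none of these 6 pairs passed and 2 other pairs did, with *Mfap2* and *Mfap4* at r = 0.65 and *Mfap4* and *Emilin1* at r = 0.20. So did the signs: after median centring *Fbn2* had r = -0.10 with *Eln*, -0.09 with *Mfap2* and -0.19 with *Mfap4*. The array medians differed by up to 0.000369, against an SD of *Fbn2* over the arrays of 3.74e-06. Its centred values therefore mostly carry the offsets between arrays, and these r values say little about *Fbn2*. In the values as deposited, *Mfap2* and *Mfap4* were most alike, with r = 0.93 (exact adjusted p = 0.0146) and rho = 0.90 (exact adjusted p = 0.0639). *Eln* followed *Mfap4* with r = 0.91 and rho = 0.71 and *Mfap2* with r = 0.90 and rho = 0.62, at an exact adjusted p of 0.0311 for both r and of 0.230 and 0.285 for the rho values. *Emilin1* followed *Mfap4* with r = 0.88 and rho = 0.88 (exact adjusted p = 0.0311 and 0.0676) and *Mfap2* with r = 0.86 and rho = 0.79 (exact adjusted p = 0.0408 and 0.156).

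These pairs rest in part on collagen replicate 3 and control replicate 3. Without the 2 arrays farthest from the median of the first-named gene, which were those 2 arrays, *Eln* with *Mfap4* fell to r = 0.42 and *Eln* with *Mfap2* to r = 0.46. *Mfap2* with *Emilin1* was at r = 0.51, *Mfap4* with *Emilin1* at 0.75 and *Mfap2* with *Mfap4* at 0.80. Within the diets, after each diet's mean was taken off, the same 5 pairs had r from 0.87 to 0.94. All 8 genes lay above their own mean in each of the 2 arrays, where 43.9% (collagen replicate 3) and 51.2% (control replicate 3) of all genes tested did. The highest value was in collagen replicate 3 for 4 of the 8 genes, against 10.2% of all genes. In all 6 further arrays at least 3 of the 8 genes lay below their own mean.

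*Fbln1* and *Fbln5* made a pair of their own, with r = 0.85 (exact adjusted p = 0.0480) and rho = 0.93 (exact adjusted p = 0.0625). Their relation did not rest on the extreme arrays: without control replicates 1 and 4 it was r = 0.91, and within the diets r = 0.86. A second *Fbln1* probe set (1422540_at) followed *Fbln5* more closely, with r = 0.96 and rho = 0.95 (exact adjusted p = 0.00238 and 0.0183 over 16 relations of other probe sets). The third *Fbln1* probe set (1439688_at) had r = -0.27 with *Fbln5* (rho = -0.10), and the second *Fbln5* probe set (1446377_at) had r = -0.37 with the first (rho = -0.10), neither passing (exact adjusted p = 0.630 and 0.542 for r, 0.840 for both rho). Against *Eln* both genes were weak, with r = 0.25 for *Fbln1* and 0.38 for *Fbln5*, neither passing. Of the 16 relations of other probe sets, 3 passed by r and 2 by rho. Besides the fibulin probe set, 1422831_at of *Fbn2* and 1449082_at of *Mfap5* followed *Mfap4* with r = 0.92 and 0.91 (exact adjusted p = 0.0128 and 0.00952), whose rho values were 0.81 and 0.90 (exact adjusted p = 0.0871 and 0.0365). Without the 2 arrays farthest from the median of *Mfap4* these r values were 0.61 and 0.69. The other 5 genes' further probe sets had r with *Mfap4* of 0.44 for *Eln*, 0.67 for *Mfap2*, 0.37 for *Emilin1*, 0.52 and -0.40 for *Fbln1* and -0.43 for *Fbln5*, none passing.

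**Figure D3:**
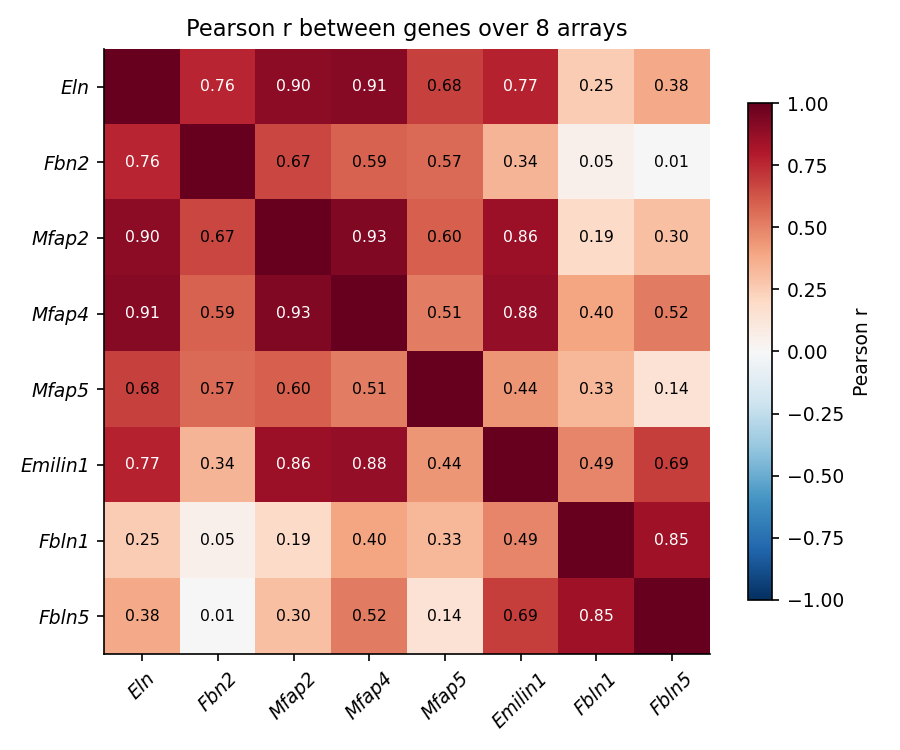
Pearson r between each pair of the 8 genes over 8 arrays (colour and number in each cell, both axes listing the genes). Pairs among *Eln*, *Mfap2*, *Mfap4* and *Emilin1* hold cells from 0.77 to 0.93. *Fbln1* with *Fbln5* is at 0.85, and *Fbln5* with *Emilin1* at 0.69.

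**Figure D4:**
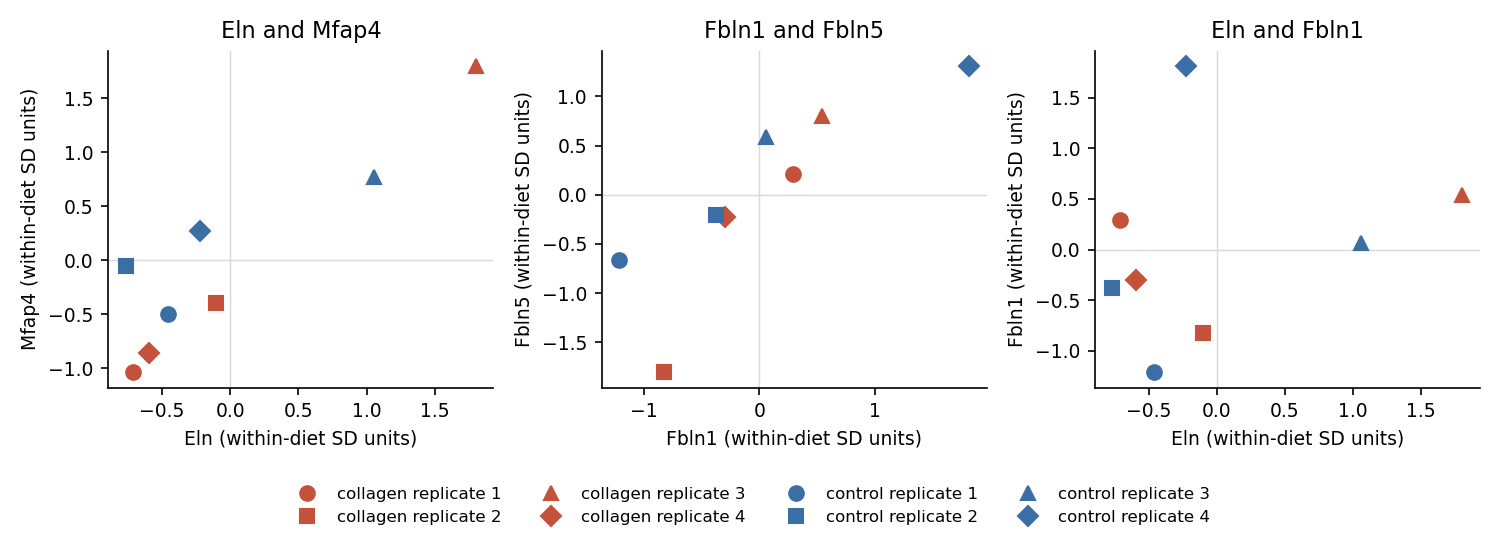
Each array's deviation (within-diet SD units on both axes) in 3 pairs of genes, with collagen-diet arrays in red, control-diet arrays in blue and the marker shape giving the replicate number. *Eln* and *Mfap4* rise together through the 2 arrays numbered 3 (r = 0.91), *Fbln1* and *Fbln5* through all 8 (r = 0.85), and *Eln* and *Fbln1* share little (r = 0.25).

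The bases just upstream of the gene start are shown for the pairs that varied together and have an entry in the RefSeq promoter table (build GRCm38.p6). These are *Fbln1* with *Fbln5* and *Mfap2* with *Emilin1*, each as 250 bases that end at the base before the start, read 5′ to 3′ along the gene. The windows are chr15:85205699-85205948 on the plus strand for *Fbln1*, chr12:101819120-101819369 on the minus strand for *Fbln5*, chr4:141010174-141010423 on the plus strand for *Mfap2* and chr5:30913536-30913785 on the plus strand for *Emilin1*. Capitals mark a GGGCGG or a CCAAT on either strand.
Fbln1: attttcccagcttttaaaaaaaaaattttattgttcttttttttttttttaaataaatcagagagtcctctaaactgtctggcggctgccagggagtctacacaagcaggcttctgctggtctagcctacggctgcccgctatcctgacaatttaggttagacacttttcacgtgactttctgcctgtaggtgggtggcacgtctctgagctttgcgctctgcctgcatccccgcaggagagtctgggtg
Fbln5: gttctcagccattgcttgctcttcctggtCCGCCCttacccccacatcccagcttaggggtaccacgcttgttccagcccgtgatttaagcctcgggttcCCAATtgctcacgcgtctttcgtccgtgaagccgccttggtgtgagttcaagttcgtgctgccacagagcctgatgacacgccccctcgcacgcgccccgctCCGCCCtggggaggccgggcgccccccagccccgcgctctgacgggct
Mfap2: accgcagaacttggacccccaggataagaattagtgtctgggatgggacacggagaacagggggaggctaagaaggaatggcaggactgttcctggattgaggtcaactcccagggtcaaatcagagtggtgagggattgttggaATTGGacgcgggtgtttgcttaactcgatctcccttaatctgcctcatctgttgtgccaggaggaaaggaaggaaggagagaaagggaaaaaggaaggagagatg
Emilin1: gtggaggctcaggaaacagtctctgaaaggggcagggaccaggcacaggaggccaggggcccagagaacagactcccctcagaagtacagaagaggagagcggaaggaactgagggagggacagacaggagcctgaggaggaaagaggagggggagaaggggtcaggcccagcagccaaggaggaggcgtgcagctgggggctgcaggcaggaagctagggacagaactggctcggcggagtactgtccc
The 2 fibulin windows differed in composition, with a G and C content of 65.2% for *Fbln5* and 46.4% for *Fbln1*, against a median of 52.4% over all 32851 windows. The GGGCGG box, which SP1 can bind, stood in the *Fbln5* window with 2 matches and was not in the other 3, while 32.7% of all windows hold it. CCAAT stood in the windows of *Fbln5* and *Mfap2*, 1 match each, and 33.8% of all windows hold it. None of the 4 windows holds TATAAA or TGANTCA, the letters of the TATA box and of an AP-1 site, which stand in 12.4% and 6.75% of all windows. Matches of different motifs shared 0 bases in each of the 4 windows.

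Among all genes tested, those most like *Eln* over the 8 arrays included several collagen chains. By Pearson r among 12734 other genes, they were *Iffo1* (0.98), *Rcn3* (0.97), *Socs2* (0.96), *Olfml2b* (0.96), *Col5a1* (0.96), *Col15a1* (0.96), *Pxdn* (0.95), *Col5a2* (0.94), *Col6a1* (0.94) and *Sparc* (0.94). *Mfap4* ranked 22 and *Mfap2* ranked 30 in likeness to *Eln*. An r of at least 0.7 was reached by 2.47% of genes with *Eln* and by 6.1% with *Fbln1*. The genes most like *Fbln1* were *Slc4a2* (0.98), *Eef2* (0.97) and *Npdc1* (0.96), and those most like *Fbln5* were *Mlec*, *Ints3* and *Mapkap1* (0.97, 0.97 and 0.96). *Mfap2* was most like *Serpinf1* (0.97), *Pdgfrl* (0.96) and *Loxl3* (0.95), a lysyl oxidase family member. *Mfap4* was most like *Slc29a2*, *Gna12* and *Iffo1* (0.96, 0.95 and 0.95), *Emilin1* like *Tnn*, *Tmem106c* and *Fbxw5* (0.98, 0.97 and 0.96), *Mfap5* like *Glud1*, *Polr2a* and *Pgghg* (0.99, 0.95 and 0.94) and *Fbn2* like *Igfals*, *Il21r* and *Prex1* (0.94, 0.92 and 0.91). These are the extremes of a ranking over 8 arrays and carry no test.

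The other genes of the elastic fibre did not pass either. A list of 26 further microfibril and fibre components had 20 tested genes. Their means lay above the control diet in 10 and below it in 10, the median difference was 0.07 SD, and 0 had an unadjusted p below 0.05. The smallest p values in this list were those of *Ltbp3* at -1.36 SD, *Emilin2* at -1.16 SD and *Mmrn2* at 0.77 SD. *Ltbp4*, a latent TGF-beta binding protein that works with fibulin-5 in elastin assembly, differed by -0.25 SD, *Ltbp2* by -0.09 SD, *Fbln2* by -0.10 SD and *Efemp1*, fibulin-3, by -0.06 SD. For elastin crosslinking and secretion, 12 genes were tested: 3 had a higher and 9 a lower mean, the median difference was -0.36 SD, and 0 had an unadjusted p below 0.05. *Loxl1*, the lysyl oxidase that mice need to renew elastic fibres, differed by -0.71 SD (interval -2.33 to 0.90) and *Lox* by -0.58 SD. *Ctsa*, cathepsin A, at -1.40 SD, *Atp6v0a2*, a proton pump subunit, at 1.20 SD and *Glb1*, beta-galactosidase, at -0.86 SD had the smallest p values of that list.

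Proteases that cut elastin and their inhibitors had a higher mean in 9 and a lower mean in 7 of 16 tested, and their median difference was 0.12 SD. *Mmp9*, gelatinase B, stood at 1.76 SD with an unadjusted p of 0.0387 and an adjusted p of 0.917 in limma, and was the 1 gene of the list below 0.05 unadjusted, or 6.25% of the list against 5.36% of all genes tested. *Mmp12*, the macrophage elastase, stood at 1.57 SD (adjusted p = 0.944 in limma) and *Ctss*, cathepsin S, at 0.94 SD. Receptors of elastic fibre proteins and signals that act on elastin had 8 genes higher and 10 lower of 18, a median of -0.05 SD and 0 genes at an unadjusted p below 0.05. *Tgfb3* at -1.46 SD, *Bmp2* at -1.40 SD and *Tgfb2* at -0.99 SD had the smallest p values there.

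Of 16 relations of related genes with *Eln* and *Fbln1*, 3 passed by r and 0 by rho, and the difference between the 2 correlations of a gene was not tested. *Col3a1* followed *Eln* with r = 0.90 and rho = 0.74 (exact adjusted p = 0.0304 and 0.183 over 16 relations) and *Col1a1* with r = 0.88 and rho = 0.67 (exact adjusted p = 0.0304 and 0.222). Against *Fbln1* both were near 0, with r = -0.09 and -0.07. Without collagen replicate 3 and control replicate 3 they followed *Eln* with r = 0.34 and 0.23. *Fbln2* and *Loxl1* had r = 0.89 and 0.82 with *Eln* and rho = 0.79 and 0.52, and did not pass (exact adjusted p = 0.0696 for both r, 0.183 and 0.393 for rho). *Ltbp4* followed *Fbln1* with r = 0.83 and rho = 0.83 (exact adjusted p = 0.0304 and 0.183), and r was 0.72 without control replicates 1 and 4. With *Eln* it had r = 0.67 and rho = 0.57, not passing (exact adjusted p = 0.109 and 0.345). *Ltbp2* with *Fbln1* had r = 0.81 and rho = 0.71 (exact adjusted p = 0.0516 and 0.184). *Efemp1* had r = 0.69 and rho = 0.74 with *Fbln1* and *Lox* r = 0.68 and rho = 0.48 with *Eln*, neither passing (exact adjusted p = 0.109 and 0.116 for r, 0.183 and 0.432 for rho).

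The arrays high in *Eln* were also high in fibrillar collagens and fibroblast markers. The mean over the 8 elastic fibre genes was -0.51, -0.29, 1.22 and -0.51 SD in collagen replicates 1 to 4, against -0.77, -0.41, 0.87 and 0.39 SD in control replicates 1 to 4. Over 8 fibrillar collagens it was 1.49 SD in collagen replicate 3 and 0.76 SD in control replicate 3, and from -0.69 to 0.26 SD in the other 6 arrays. Over 12 fibroblast markers it was 1.10 and 0.57 SD in the same 2 arrays, and from -0.69 to 0.32 SD in the other 6. Keratinocyte markers went the other way, with -0.20 SD in collagen replicate 3 and -0.74 SD in control replicate 3, while collagen replicate 4 and control replicate 4 were also below 0. Collagen replicate 3 was also the highest array in skeletal muscle markers (0.91 SD), smooth muscle markers (0.81 SD) and the receptors and signals (0.60 SD). Control replicate 3 was at 0.25, -0.53 and 0.31 SD in these lists. The part of any of these lists in the pattern of the elastic fibre genes was not tested. Between the diets the mean was higher on the collagen diet in 7 of 8 fibrillar collagens and 7 of 12 fibroblast markers, against 45.5% of all genes, with medians of 0.34 and 0.21 SD and 0 genes called. The mean was also higher in 18 of 18 skeletal muscle, 9 of 11 smooth muscle, 6 of 9 endothelium, 9 of 13 keratinocyte and 4 of 8 adipocyte markers. Those lists had medians of 0.22, 0.20, 0.20, 0.49 and -0.11 SD and 0 genes called.

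**Figure D5:**
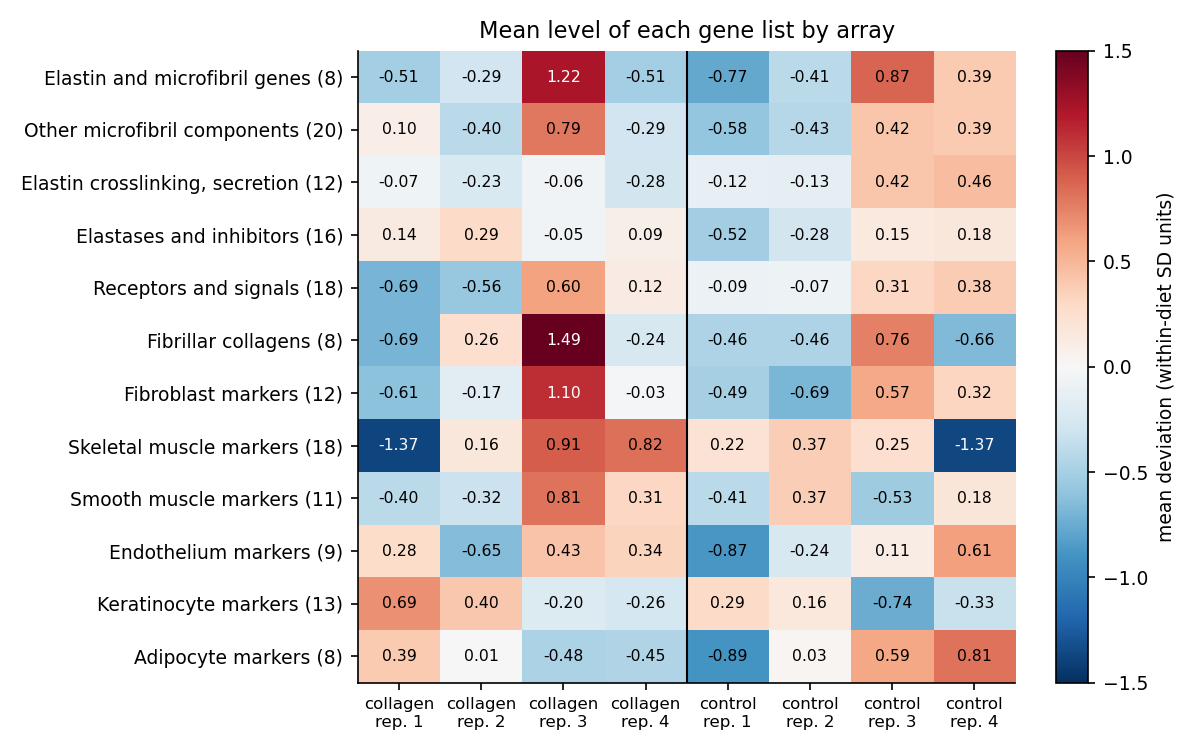
Mean deviation of each gene list (rows, number of genes tested in brackets) in each of the 8 arrays (columns, collagen diet left of the line, control diet right), in within-diet SD units by colour and number. Collagen replicate 3 and control replicate 3 are high in the elastic fibre genes (1.22 and 0.87), the fibrillar collagens (1.49 and 0.76) and the fibroblast markers (1.10 and 0.57).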

How the data were processed

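The samples were 8 dorsal skin samples, 4 per diet, grouped by their titles. Per the labels' protocols, 200 ng of total RNA from powdered frozen skin was labelled with biotin by a 3' in vitro transcription kit and measured on oligonucleotide arrays. The deposited values are log2 values, 1 per probe set and array, as judged from their range. The submitters' processing notes name R 2.7.2. How probe signals were summarized and normalized, the sources used here do not say. Between arrays the quartiles lay within 0.00138 and the medians within 0.000369. The gap between medians is more than the within-diet SD of *Fbn2*, *Fbln5*, *Mfap5* and *Emilin1*. The gap between quartiles is also more than that of *Eln* (0.00116), *Fbln1* (0.000469) and *Mfap2* (0.000579).

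Of 45101 probe sets, 64 controls were set aside; 34945 of the others name 1 gene symbol in the platform annotation (possibly out of date). Each of 18193 genes was read from its probe set with the highest mean, and the lowest 30% were left out. The two-sided diet test used lmFit and eBayes (trend by mean level) of limma 3.58.1 under R 4.3.3 and had 6 residual and 0.61 prior degrees of freedom, on genes and, with the same share left out, on single probe sets. The fit was tested on simulated data with normal noise at the real means and within-diet SDs. It called 14.9% of 67 genes changed by 3 SD and 89.6% of 67 genes changed by 6 SD, with 3 false calls in a fit of 12735 genes. Noise was drawn separately for each gene, whereas genes of the real arrays varied together. The rates also depend on how many genes change, so they need not hold for the real data. Most differences of 3 SD were thus missed in the simulation. Correlations over arrays were tested by exact permutation in Python with Benjamini-Hochberg adjustment within each family (28 pairs of members, 16 relations of other probe sets, 16 of related genes).

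Genes named are the members, up to 3 genes with the smallest unadjusted p of the lists described, 8 related genes (*Loxl1*, *Lox*, *Ltbp4*, *Ltbp2*, *Fbln2*, *Efemp1*, *Col1a1*, *Col3a1*), the 10 genes most like *Eln* and the 3 most like each other member, predicted genes skipped. The members and lists were chosen with earlier results of these data known. Alternatives were other filters, quantile normalization, median centring, other variance models, the mean of all probe sets, array weights, a block for the replicate number and leaving out each array. Added after seeing the data were no moderation of variances and leaving out 2 pairs of arrays.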

Additional observations from a re-analysis of the deposited data

Results flagged for a closer look

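In 1 of the 32 groups of 4 arrays examined (each diet in each of 16 probe sets), 1 array lay far from the others. In the second *Fbn2* probe set (1422831_at) on the collagen diet, replicate 3 was at 1.81 SD and the other 3 arrays between -0.67 and -0.30 SD. Its gap to the nearest array was 0.853 of the group's whole range, above Dixon's critical value for 4 samples. Chance gives about 1 such group in 20.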

How the results depend on the processing

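In none of the 20 other fits, nor in any other probe set, was any of the 8 genes called, and the smallest adjusted p in limma was 0.849. Over all genes, 1 was called with the lowest 50% left out (which leaves out *Fbn2* and *Emilin1*), 1 at an adjusted p below 0.10, and 0 to 1 without single arrays (1 without control replicate 1). Outside the fits that leave out a single array, 89 of 102 values kept their direction. Among these, values under other filters, other variance models, no moderation and the replicate block could not turn. Those fits leave the difference in means unchanged, so that count is no measure of stability. The values that turned were *Fbln5* (0.049 SD) and *Mfap5* (-0.71) under quantile normalization, *Fbn2* (-0.13) under median centring and *Eln* (-0.045) with array weights. Without control replicate 4 and collagen replicate 1, *Fbln1* (0.47), *Mfap2* (0.053) and *Mfap4* (0.10) turned and 6 of 8 genes were higher. In other probe sets *Eln* (-0.82), *Fbln1* (0.020), *Fbln5* (0.67), *Mfap2* (0.0094), *Mfap5* (-0.023) and *Emilin1* (0.092) went the other way. Each value is in the SD of its own probe set, and those of *Eln*, *Fbln1*, *Fbln5* and *Mfap2* varied far less than the chosen ones. The cause was not tested. Each of these fits divided by the within-diet SD of its own values, so sizes in SD do not share a unit across fits. A larger size without an array need not be a larger shift of the mean. Leaving out single arrays gave 1 to 5 genes higher and a median from -0.74 to 0.11 SD. The ranges were -0.57 to 0.63 for *Eln*, 0.52 to 1.66 for *Fbn2*, -0.65 to 0.70 for *Fbln1*, -0.90 to 0.0097 for *Fbln5*, -0.98 to 0.16 for *Mfap2*, -1.91 to 0.060 for *Mfap4*, -0.16 to 0.80 for *Mfap5* and -1.48 to -0.25 for *Emilin1*. Without collagen replicate 3 and control replicate 3 the median was -0.49 SD, with *Mfap4* at -1.87 SD. Of the 6 pairs with an adjusted p below 0.05 over the arrays as deposited, none passed after quantile normalization, where 2 other pairs did. After median centring 7 pairs passed, and *Emilin1* with *Mfap2* (r = 0.39) and with *Mfap4* (r = 0.31) did not. The array medians differed by more than the within-diet SD of *Fbn2*, *Fbln5*, *Mfap5* and *Emilin1*. Centred pairs of these genes therefore partly share the offsets between arrays. With the replicate number as a block the median was -0.26 SD and 0 genes were called. The difference in means is the same with this block, so no direction could turn. The SD left after the block became the unit. In that unit the values changed by over 1.5 times for *Emilin1*, *Fbn2*, *Mfap2*, *Mfap4* and *Eln*. *Emilin1* was at -1.73 SD (unadjusted p = 0.0617 and adjusted p = 0.944 in limma). *Fbn2* was at 1.69, *Mfap2* at -0.90, *Mfap4* at -0.38 and *Eln* at 0.47 SD. Same-numbered arrays deviated together only for number 3 (r = 0.18 over genes, against -0.07 to 0.00), so the numbers were not taken as pairs.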

Other observations

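Among the 71 markers tested, 2 genes had groups that did not overlap, or 2.82% against 3.31% of all genes tested, and neither passed. *Acta2*, the smooth muscle actin also made by myofibroblasts, stood at 1.62, 0.46, 2.10 and 0.68 SD in collagen replicates 1 to 4, against -1.55, -0.54, -2.72 and -0.05 SD in control replicates 1 to 4 (adjusted p = 0.831 in limma). *Pparg*, the nuclear receptor of fat cell differentiation, differed by -2.66 SD, with all 4 collagen arrays below all 4 control arrays (adjusted p = 0.698 in limma). *Smtn*, smoothelin of contractile smooth muscle, differed by -2.23 SD with overlapping groups (adjusted p = 0.809 in limma), the opposite sign to *Acta2*.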
